A study of Mus musculus with 10 samples.

Results

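Within the Smyd5 knockdown line, embryoid bodies (EBs) of day 10 were compared with EBs of day 6. Each stage had 1 library of polyA RNA, read by RNA-Seq. The genes described are those with an RPKM (the reads of a transcript divided by its length and by the size of the library) of at least 3 in 1 or both of these libraries, which held for 10211 of 22878 gene symbols. Of these members, 7806 reached an RPKM of 3 at both days, 2035 at day 10 alone and 370 at day 6 alone. The cells were R1 mouse embryonic stem (ES) cells infected with lentiviral particles that carry a short hairpin RNA (shRNA), selected with puromycin. The shSmyd5 line carries an shRNA against Smyd5, and the shLuc line carries one against luciferase, a gene that mouse cells lack. The labels describe, for the RNA-Seq cells, repeated passages on gelatin with a GSK3 inhibitor that clear the feeder cells, a step the study's methods give for its ChIP cells, and EBs formed in low attachment dishes in medium without LIF. The shLuc EBs of day 10 and day 6, also 1 library each, gave the like step in control cells. The shRNA used for these libraries, the number of clones and the number of EBs pooled per library are not given in the sources used here. With no replicate, every fold compares 1 library with 1 other, no p-value was taken, and a gene is called higher or lower where it passed 2-fold.

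EBs are floating aggregates in which ES cells leave pluripotency and form derivatives of the germ layers. Their outer layer becomes primitive endoderm, which splits into visceral endoderm, the nutrient-absorbing epithelium of the yolk sac, and parietal endoderm, which lays down a thick basement membrane. Later on, blood islands with primitive red cells, vessels, beating heart muscle and mesenchyme appear. SMYD5 is a SET and MYND domain protein described as a histone H4 lysine 20 methyltransferase.

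Promoter sequences of 6 genes that were higher at day 10 are shown because these genes stand for the red cell, heart muscle, yolk sac and stomach genes described further on. The stretches are from 130 bases before to 20 bases after the RefSeq transcription start (RefSeq table of build GRCm38.p6), and each was found once, letter for letter, in mm9. In mm9 they lie at chr11:32176470-32176619 on the plus strand (Hba-x), chr7:111001702-111001851 on the minus strand (Hbb-y), chr11:5798766-5798915 on the minus strand (Myl7), chr9:110666052-110666201 on the plus strand (Myl3), chr5:90919610-90919759 on the plus strand (Afp) and chr6:87323229-87323378 on the plus strand (Gkn2). Capitals mark the 4 motifs searched on both strands. These were TATAAA (the TATA box), CCAAT (bound by NF-Y), GTTAAT (a half-site of the HNF1 factors) and the CArG box (bound by serum response factor).
Hba-x: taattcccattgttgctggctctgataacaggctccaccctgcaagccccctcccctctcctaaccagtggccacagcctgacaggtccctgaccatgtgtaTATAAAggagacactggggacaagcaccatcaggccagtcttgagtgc
Hbb-y: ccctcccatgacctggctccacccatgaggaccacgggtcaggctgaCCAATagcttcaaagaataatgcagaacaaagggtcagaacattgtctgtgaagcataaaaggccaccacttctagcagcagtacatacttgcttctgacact
Myl7: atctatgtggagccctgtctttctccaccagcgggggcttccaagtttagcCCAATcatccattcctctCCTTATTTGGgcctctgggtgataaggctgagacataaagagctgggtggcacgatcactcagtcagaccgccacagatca
Myl3: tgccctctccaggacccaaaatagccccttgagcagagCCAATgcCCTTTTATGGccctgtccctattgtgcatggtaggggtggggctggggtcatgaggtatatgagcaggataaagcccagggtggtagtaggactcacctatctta
Afp: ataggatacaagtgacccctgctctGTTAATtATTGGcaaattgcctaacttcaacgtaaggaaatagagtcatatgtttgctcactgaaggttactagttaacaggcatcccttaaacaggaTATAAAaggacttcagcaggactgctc
Gkn2: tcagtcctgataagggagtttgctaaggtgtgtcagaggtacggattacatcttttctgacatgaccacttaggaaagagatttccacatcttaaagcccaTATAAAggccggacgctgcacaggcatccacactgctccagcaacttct
No capitals overlap between motifs in these stretches. TATAAA began at -28 in Hba-x, at -29 in Gkn2 and at -7 in Afp, counted from the start at +1. The CArG box began at -61 in Myl7 and at -85 in Myl3, and a CCAAT stood upstream of it in both. Afp held GTTAAT at -105 and a reversed CCAAT at -98. Of the 32851 promoters of 300 bases in the table, 13.6% held TATAAA, 37.4% CCAAT, 7.1% GTTAAT and 1.63% a CArG box, so the first 3 motifs are common by themselves. Of the 19 listed heart sarcomere genes found in that table, 5 held a CArG box in any of their promoters (Actc1, Ldb3, Myl3, Myl7 and Myom1). This count is by gene, where the shares above are by promoter, and the 19 include genes below the RPKM limit. A match of letters is a description and shows no binding.

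The targeted gene was read first. Smyd5 (chr6:85381983-85396429, mm9) had 9.14 RPKM (356 reads) in shSmyd5 EBs of day 10 and 0.492 RPKM (79 reads) in those of day 6. Over the series the shSmyd5 line held 4.51, 0.891, 0.492, 9.14 and 6.88 RPKM in ES cells and in EBs of 24 h, day 6, day 10 and day 14. The shLuc line held 29.7, 10.7, 15.4, 24.95 and 13.1 RPKM at these stages. Smyd5 was thus below shLuc at every stage, but its own transcript was 15.6-fold higher at day 10 than at day 6 (log2 fold 3.96, 95% interval 3.86 to 4.59). In shLuc EBs the log2 fold was 0.70 (0.61 to 0.79). The day and the remaining Smyd5 transcript changed together in the knockdown line, and their parts in the differences described here cannot be told apart.

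Reads in genes came to 11587953 in the shSmyd5 library of day 10 and 38823851 in that of day 6, against 22131320 and 43377815 in shLuc. The deeper library of day 6 nevertheless listed more genes at 0 reads. In shSmyd5 EBs 5843 genes had no read at day 10 and 8018 at day 6, while 952 genes had exactly 1 read at day 10 and 118 at day 6. In shLuc EBs the genes with 1 read numbered 796 at day 10 and 273 at day 6. The reads are not known to be separate molecules, so the 95% intervals given (exact binomial, Clopper-Pearson, on the reads of both libraries) and the lower bounds of folds against 0 reads (set at a floor of 3 reads in the library at 0) cover counting error alone. A gene with no read in the shSmyd5 library of day 6, which held few genes of 1 read for its depth, is therefore not shown to lie under that floor. Every fold given below as at least a value holds only if that floor does.

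Of the 10211 members, 3686 (36.1%) were at least 2-fold higher at day 10 than at day 6, and 925 (9.06%) were at least 2-fold lower. The other 5600 lay between. Folds are log2 of RPKM plus 0.1 at day 10 less that at day 6. Their median over all members was 0.60, with the middle of the distribution from -0.14 to 1.36 (quartiles), so most genes stood somewhat higher at day 10 on this scale. Past 4-fold there were 1101 members higher and 280 lower. Relative to the median of 0.60, 1905 members (18.7%) were at least 2-fold higher and 1883 (18.4%) at least 2-fold lower, counts that this centring brings near each other by construction. No read was found at day 6 for 58 members and none at day 10 for 3. At the edge of the RPKM limit, Kctd1 lay just inside (3.00 RPKM at day 10 against 0.288 at day 6) and Zfp444 just outside (3.00 against 1.40).

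**Figure D1:**
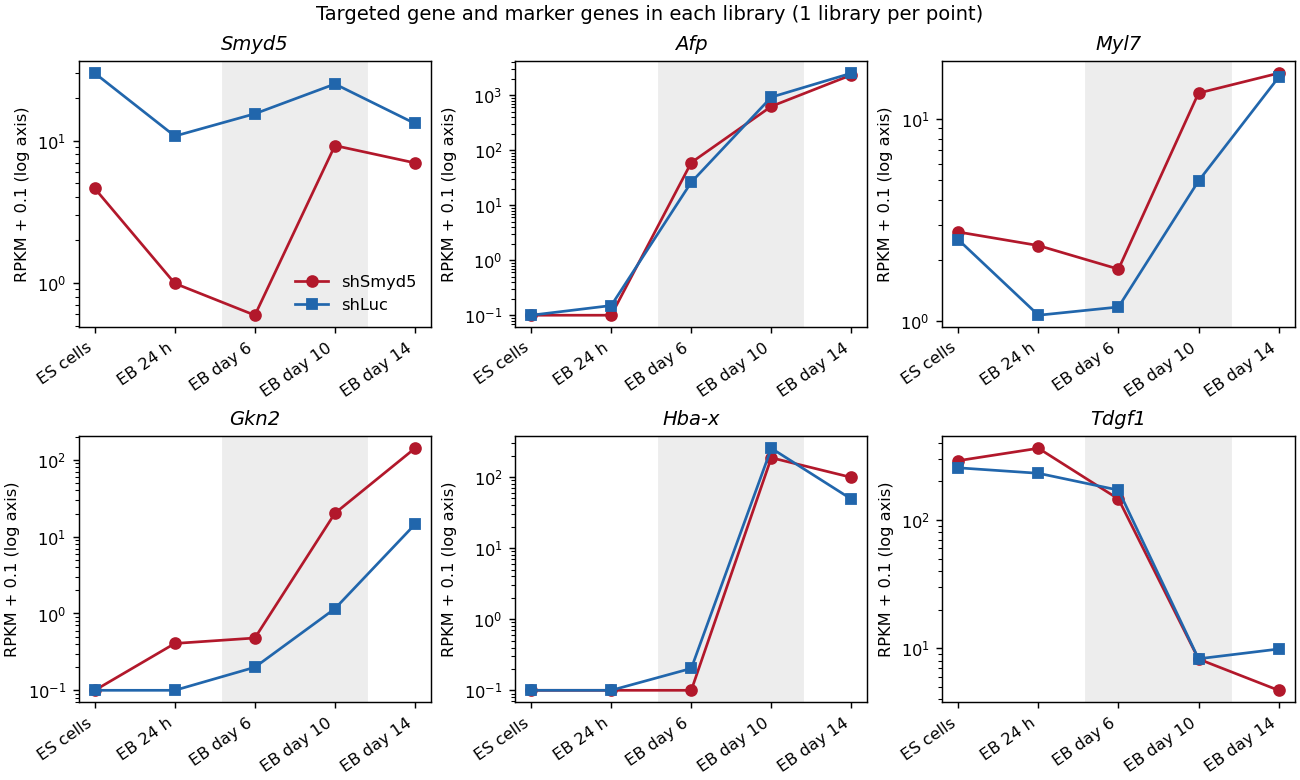
RPKM plus 0.1 (log axis) of Smyd5, the marker genes Afp, Myl7 and Gkn2, the embryonic globin Hba-x and the epiblast gene Tdgf1 in ES cells and EBs, 1 library per point, with shSmyd5 as circles and shLuc as squares and day 6 to day 10 shaded. In shSmyd5 EBs Hba-x had 187 RPKM at day 10 against 0 at day 6, and Tdgf1 had 8.14 against 145.

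Marker genes of 3 tissues were all higher at day 10. Afp, which encodes the fetal serum protein alpha-fetoprotein (chr5:90919740-90937933, mm9), had 626 RPKM at day 10 against 59.5 at day 6, a log2 fold of 3.39 (3.36 to 3.43). It went on to 2332 RPKM at day 14, and its log2 fold in shLuc EBs was 5.14 (5.09 to 5.19). Myl7, the atrial myosin light chain of early heart muscle (chr11:5796640-5798785), had 13.3 RPKM at day 10 against 1.71 at day 6 (log2 fold 2.89, 2.52 to 3.42). In shLuc EBs Myl7 had 4.84 against 1.08 RPKM (log2 fold 2.07), and the intervals of the lines overlap. Gkn2, a secreted gastrokine of stomach surface epithelium (chr6:87323359-87329488), had 20.1 RPKM at day 10 against 0.380 at day 6 (log2 fold 5.40, 5.05 to 6.48). It reached 1.06 against 0.0996 RPKM in shLuc EBs, from 25 and 5 reads. At day 14 Gkn2 stood at 142 RPKM in shSmyd5 EBs and 14.4 in shLuc EBs.

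Among 6402 genes that reached an RPKM of 10 at 1 or both days, the highest folds belonged to primitive red cell, matrix and muscle genes. For genes with no read at day 6, folds given as at least a value assume the floor of 3 reads. Hba-x, the embryonic zeta globin, had 187 RPKM at day 10 (1751 reads) and no read at day 6, at least 2406-fold higher. Hbb-bh1, an embryonic beta-like globin, had 177 RPKM and no read at day 6 (at least 2315-fold higher). Hbb-y, the epsilon globin of primitive red cells, had 21.4 RPKM at day 10 (at least 284-fold higher). All 3 embryonic globins also came on in shLuc EBs, where they stood at 254, 401 and 39.03 RPKM at day 10. Matrix genes followed. Col3a1 (type III collagen) had 32.4 RPKM and Lum (the proteoglycan lumican) 32.6 RPKM at day 10, each with no read at day 6, at least 3875-fold and 1452-fold higher. Postn (periostin) had 66.1 RPKM against 0.131 at day 6 (log2 fold 8.17, where the interval of the plain ratio of rates, 8.44 to 9.59, lies above it because the 0.1 added to the RPKM pulls low genes towards 0). These genes were much higher again by day 14, when Col3a1 had 347, Lum 252 and Postn 280.02 RPKM. The slow-muscle and heart genes Myl3 (16.3 RPKM) and Tnni1 (13.9) had no read at day 6. At the floor of 3 reads they were at least 315-fold and 324-fold higher. So were the liver-type genes Igfbp1, which binds insulin-like growth factors (17.8 RPKM, at least 581-fold), and Tdo2, which starts tryptophan breakdown (15.8 RPKM, at least 555-fold).

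The other 5 of the 15 highest folds were rows of miRNA precursors and a small nucleolar RNA, of 59 to 84 bases. Mir675 had 89.9 RPKM from 118 reads at day 10 and none at day 6. Mir3064 had 22 reads, Mir5116 17, Mir1903 17 and Snord52 11, each against 0 at day 6. In polyA libraries reads over such short rows cannot be told from those of a longer transcript around them. Mir675 (chr7:149762969-149763052) lies inside H19, a maternally expressed imprinted RNA that had 194 RPKM at day 10 against 30.01 at day 6.

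**Figure D2:**
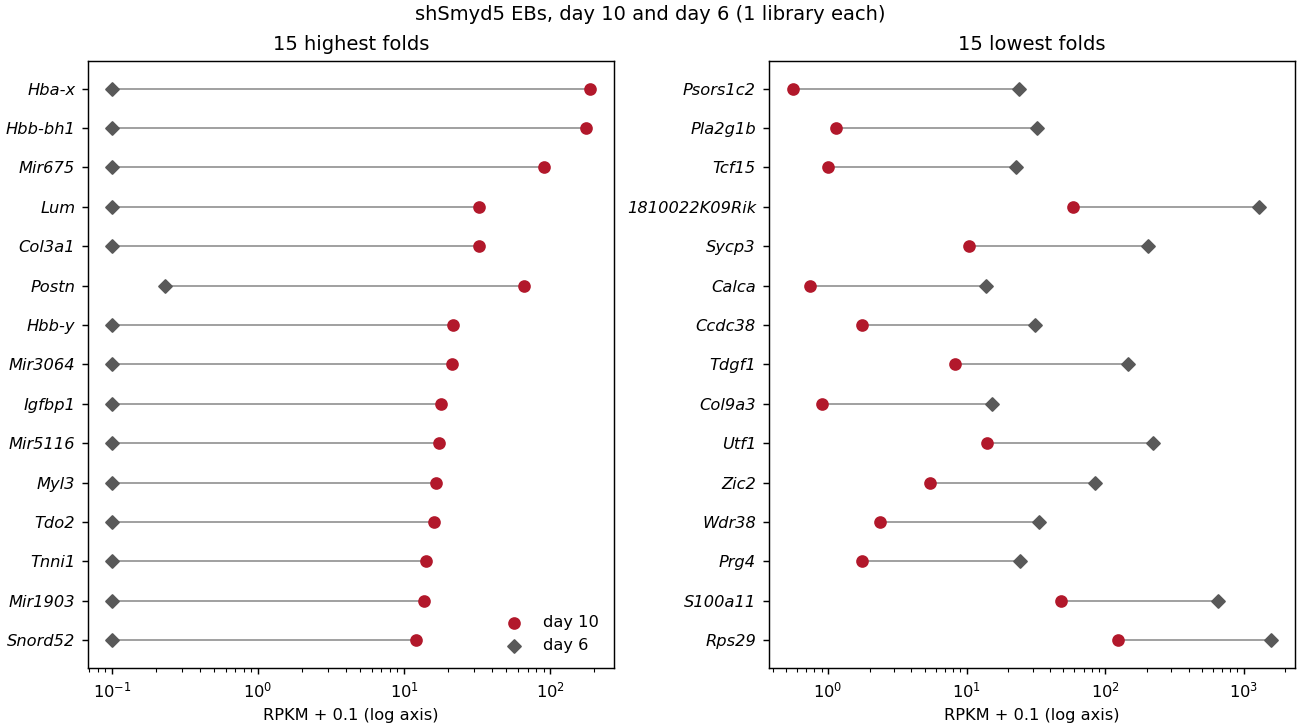
RPKM plus 0.1 (log axis) of the 15 genes with the highest and the 15 with the lowest log2 fold in shSmyd5 EBs, day 10 as circles and day 6 as diamonds, 1 library each. On the left all but Postn sit at the left edge at day 6, where no read was found, and on the right Psors1c2 has 0.456 RPKM at day 10 against 23.6 at day 6.

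The lowest folds gathered epiblast, germ cell and a set of less related genes. Psors1c2 had 0.456 RPKM at day 10 against 23.6 at day 6, 42.7-fold lower. Tdgf1, the Cripto co-receptor of Nodal in the epiblast, had 8.14 against 145 RPKM (log2 fold -4.14, -4.35 to -3.98). Utf1, a chromatin protein of undifferentiated ES cells, had 13.9 against 222 (log2 fold -3.99). These epiblast genes moved alike in the control line, with log2 folds of -4.37 and -4.05 in shLuc EBs. Sycp3, of the meiotic synaptonemal complex, had 10.3 against 202 RPKM (log2 fold -4.29). Zic2, a zinc finger factor of epiblast and neural plate, had 5.35 against 84.3 (-3.95), and Tcf15, a bHLH factor of epiblast and somites, 0.894 against 22.6 (-4.52). The less related genes stood among these and not after them. Pla2g1b, a secreted phospholipase (1.04 against 32.3 RPKM), had the lowest fold after Psors1c2. Calca, the calcitonin gene (0.644 against 13.8), and Ccdc38 (1.66 against 31.1) also ranked below Tdgf1. Col9a3, a cartilage collagen chain, had 0.810 against 15.1, Prg4, lubricin, 1.66 against 24.2, and Wdr38 2.28 against 33.1. 3 of the 15 lay at high levels. The Riken gene 1810022K09Rik had 58.9 against 1296 RPKM, S100a11, a calcium-binding protein, 47.7 against 655, and the ribosomal protein gene Rps29 125 against 1565. S100a11 differed less in shLuc EBs (41.1 against 52.5 RPKM), where its day 6 level was far below that of shSmyd5.

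The most abundant transcripts changed kind between the days. At day 10 the 10 highest RPKM belonged to Eef1a1 (2217), Sparc (1582), Apoe (1371), Hsp90ab1 (1153), Gnb2l1 (994), Igf2 (985), Actb (974), Rpl4 (971), Slc2a3 (891) and Ctsl (882). They hold a matrix glycoprotein of parietal endoderm (Sparc), a lipid carrier (Apoe), a fetal growth factor (Igf2), a glucose transporter (Slc2a3) and a lysosomal protease (Ctsl) beside housekeeping genes. At day 6 the 10 highest were Rps26 (4069), Rpl4 (2718), Mt1 (2692), Rps20 (2639), Rpl39 (2330.1), Rpl41 (2105), Eef1a1 (1791), Rps29 (1565), Srgn (1502) and Rpl26 (1322). 7 of these are ribosomal protein genes. Mt1, a metal-binding metallothionein, had 422 RPKM at day 10 (log2 fold -2.67), against a log2 fold of -0.87 in shLuc EBs. Srgn, the granule proteoglycan serglycin, also made by parietal endoderm, had 229.7 RPKM at day 10 (log2 fold -2.71, -2.76 to -2.66). Srgn stood far above the control line at both days, since shLuc EBs had 8.29 RPKM at day 10 and 24.7 at day 6.

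Lists of genes for cell types and pathways were then counted, over the genes of each list that are members. Each count is read against 36.1% higher and 9.06% lower among all members, and each median against 0.60. In shLuc EBs 27.3% of 10779 genes were at least 2-fold higher and 9.86% lower, with a median of 0.30. Where the knockdown folds of a list are set against those of shLuc, the median difference over all genes was 0.28 in log2. More genes thus lay above shLuc than below it, and their share over all genes was not counted. A gene that reached an RPKM of 3 at day 10 alone was higher there by that fact, and one that reached it at day 6 alone was lower, so counts and medians over members are in part set by the limit and are descriptions. Where many members of a list were of this kind, their number is given with the count over all listed genes that had a read at either day. A list described here shows what its genes did in bulk RNA, in which more cells of a type and more RNA per cell cannot be told apart.

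**Figure D3:**
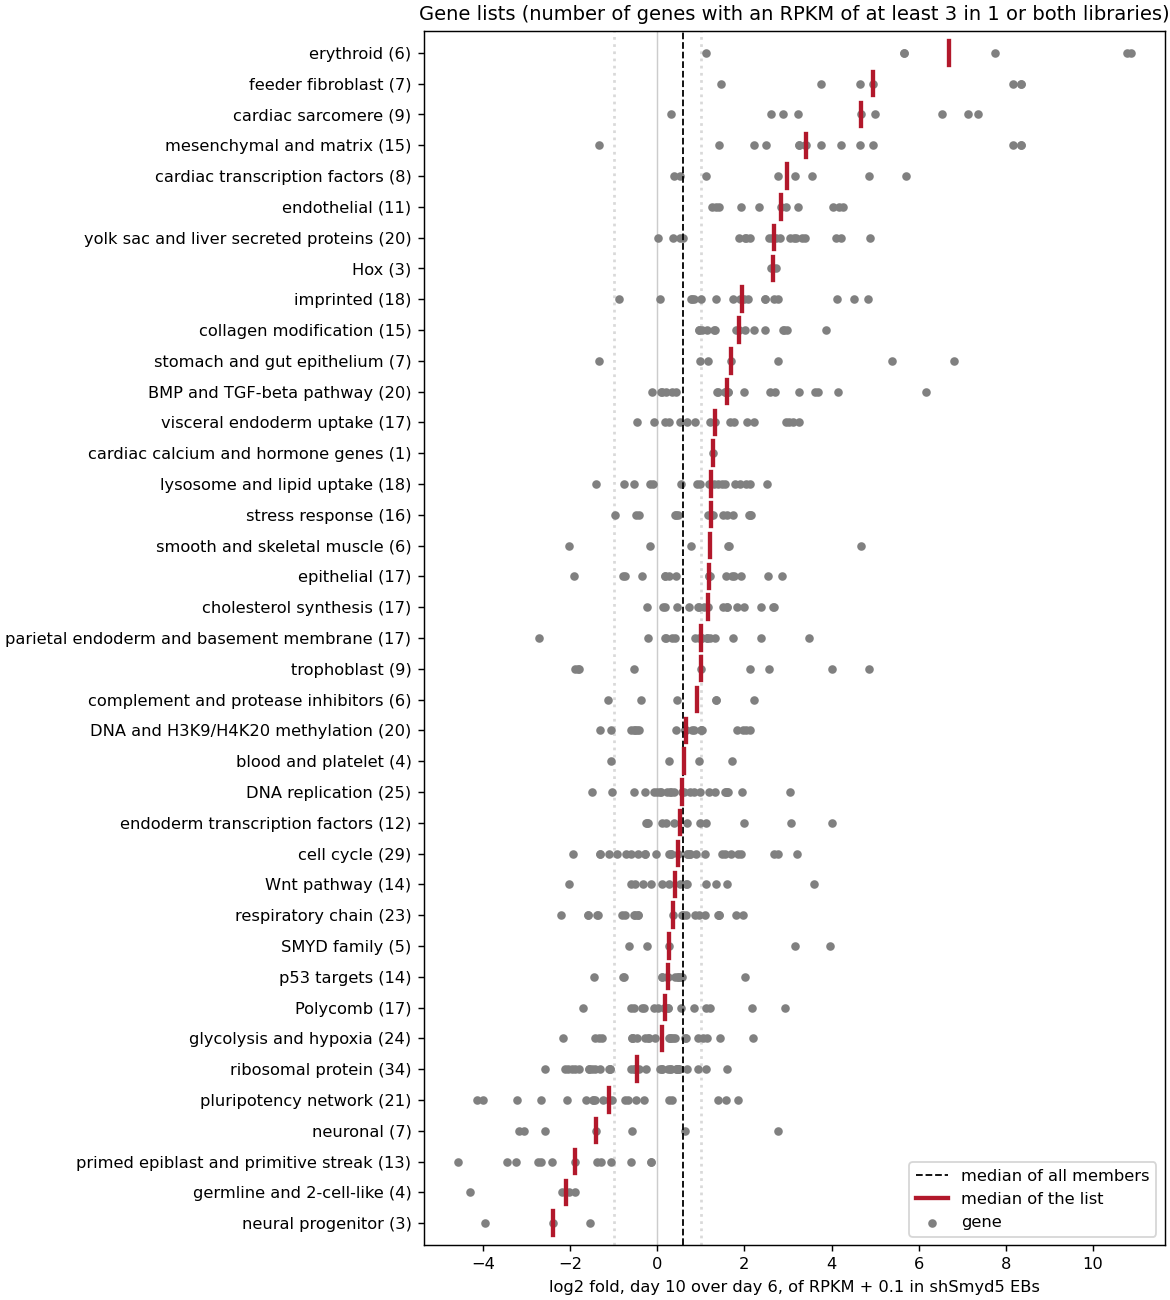
Log2 fold, day 10 over day 6, in shSmyd5 EBs for each gene of 39 lists with an RPKM of at least 3 at 1 or both days (grey points, the number of genes in brackets) with the median of the list (red bar), the median of all members (0.60, dashed line) and the 2-fold limits (dotted lines). Erythroid (median 6.70), feeder fibroblast (4.95), cardiac sarcomere (4.67) and mesenchymal genes (3.41) lie at the top, lists in which most genes reached the limit at day 10 alone. Epiblast (-1.89), germline (-2.10) and neural progenitor genes (-2.40) lie at the bottom. There 7 of 13 epiblast and 3 of 4 germline genes reached the limit at day 6 alone. The neural progenitor median is that of 3 genes and was 0.08 over 22 listed genes with a read.

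Genes of the pluripotent state were lower at day 10, with exceptions. Of 25 listed pluripotency genes, 21 were members, of which 12 were at least 2-fold lower and 3 higher (median -1.11). Besides Tdgf1 and Utf1, Sox2 had 23.5 RPKM at day 10 against 98.4 at day 6 (log2 fold -2.06) and Nr0b1, a nuclear receptor that binds OCT4, 0.535 against 5.84 (-3.23). Pou5f1, which encodes OCT4, had 17.1 against 35.2 (log2 fold -1.03, -1.20 to -0.88). Nanog had 10.4 against 14.7 RPKM (log2 fold -0.49, -0.71 to -0.29) and did not pass 2-fold, whereas in shLuc EBs it had 11.5 against 71.8 (-2.64, -2.79 to -2.51). The lines thus lay closer together at day 10 than at day 6, and the same held for Pou5f1, with 26.4 against 126 RPKM in shLuc EBs (log2 fold -2.25). In shLuc EBs 20 of 25 listed genes were lower and the median was -2.64. The 3 higher genes in the knockdown were Lin28a, an RNA-binding inhibitor of let-7 (162 against 61.3 RPKM, log2 fold 1.40), Tfcp2l1 (9.47 against 3.12) and Tbx3 (26.6 against 7.32), which is also expressed in yolk sac and heart. With the median of all genes set to 0 only Tbx3 stayed past 2-fold. The remaining 4 listed genes did not reach an RPKM of 3 at these days, and over all 25 the median was -1.03, with 13 lower and 4 higher.

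Primed epiblast and primitive streak genes gave 10 lower and 0 higher of 13 members (20 listed, median -1.89). Foxd3, a forkhead factor of the epiblast, had 0.216 RPKM at day 10 against 7.43 at day 6, and the growth factor gene Fgf5 3.84 against 36.9 (log2 folds -4.58 and -3.23). The streak genes T (brachyury), Eomes and Mixl1 had 1.31, 3.86 and 0.951 RPKM at day 10 against 15.2, 14.5 and 5.52 at day 6. Dnmt3b, the de novo DNA methyltransferase of the epiblast, had 27.6 against 58.02 (log2 fold -1.07), set beside 23.4 against 198 in shLuc EBs (-3.08). Lef1, Fgf8 and Wnt3 lay within 2-fold. The limit was reached at day 6 alone by 7 of the members, and over all 20 listed genes 10 were lower and 2 higher (median -1.03). All 4 germline members of 16 listed genes were lower (median -2.10). After Sycp3 came the piRNA pathway gene Mael, the RNA helicase gene Ddx4 and the testis factor gene Dmrt1, at 1.03, 1.51 and 1.51 RPKM at day 10 against 5.05, 5.81 and 6.38 at day 6. Of the 4, 3 reached the limit at day 6 alone, and over 14 listed genes with a read 8 were lower and 1 higher (median -1.13). The Zscan4 genes of 2-cell-like cells stayed below an RPKM of 3 at both days.

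Yolk sac and liver genes for secreted proteins were higher as a group. Of 28 listed genes 20 were members, of which 16 were at least 2-fold higher and none lower (median 2.69, for the same genes in shLuc EBs 3.82). Of the members 7 reached the limit at day 10 alone, and over all 28 listed genes 18 were higher and 1 lower (median 2.09). Apoa2, a high-density lipoprotein component, had 72.7 RPKM at day 10 against 2.38 at day 6 (log2 fold 4.87), and Apoe, Apob and Apoa1 had 1371, 130.4 and 149 against 232, 31.5 and 37.01. Rbp4, the retinol carrier, had 731 against 110.2 RPKM (2.73), and Trf, which encodes transferrin, 21.96 against 1.19 (4.10). The fibrinogen genes Fga and Fgb had 3.54 and 45.04 RPKM at day 10 against 0.342 and 5.05, and prothrombin (F2) 13.6 against 1.41. The 4 genes between were Ttr, a thyroxine and retinol carrier that was already at 285 RPKM at day 6 (432 at day 10, log2 fold 0.60), Apoa4, Apoc1 and Amn. Alb (albumin) and Ahsg, which mark more mature liver cells, stayed below an RPKM of 3, at 0.0313 and 0.217 at day 10 against 0.205 and 0.442 at day 6. The knockdown fold was below that of shLuc for 18 of the 20 members, with a median difference of -1.17 in log2, while over all genes it was 0.28.

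Endoderm transcription factor genes had a lower median than the genes for secreted proteins. Of 12 members (20 listed), 4 were higher and none lower, and the median of 0.53 lay near that of all members, turning negative with the GC and length trend removed (-0.43) or the median of all genes set to 0. Over all 20 listed genes 8 were higher and 0 lower (median 0.98). The 4 were Cdx2, of trophoblast and hindgut (5.67 RPKM at day 10 against 0.261 at day 6), Foxa3 (10.6 against 1.17), Hnf4a, a nuclear receptor of visceral endoderm and liver (21.5 against 5.35, log2 fold 1.98), and Gata4 (102 against 47.2, 1.12), whose fold turns negative with that trend removed. Sox17 had 30.7 against 36.8 RPKM, Sox7 17.7 against 20.4 and Gata6 44.8 against 34.1, so these primitive endoderm genes were already high at day 6. In shLuc EBs 10 of 12 members were higher (median 2.35), from low levels at day 6. Sox17 had 10.8 RPKM there at day 10 against 1.29 at day 6, and Gata6 21.9 against 3.59.

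Genes by which visceral endoderm takes up nutrients gave 10 higher and none lower of 17 members (median 1.33). Vil1 and Pdzk1, both of the brush border, had 18.3 and 13.5 RPKM at day 10 against 1.84 and 1.47 at day 6. Cubn, the vitamin B12 and albumin receptor cubilin, had 93.2 against 37.1 (log2 fold 1.33), while its partners Lrp2 (15.6 against 12.95), Amn and the adaptor gene Dab2 (333 against 457) lay within 2-fold. For 15 of these members the knockdown fold was below that of shLuc. Parietal endoderm and basement membrane genes gave 9 higher and 1 lower (Srgn) of 17 members. Their median of 1.02 became -0.07 with the GC and length trend removed. Thbd, thrombomodulin, had 4.51 RPKM at day 10 against 0.313 at day 6, Pth1r, the parathyroid hormone receptor of parietal endoderm, 59.7 against 11.3 (log2 fold 2.39) and the type IV collagen chain gene Col4a2 272 against 80.98 (1.75). Its partner Col4a1 had 519 against 265 and Sparc 1582 against 1197, both within 2-fold. The laminin genes Lama1, Lamb1 and Lamc1 had 102, 238 and 200.4 RPKM at day 10 against 45.97, 108 and 80.4 at day 6, where the folds of Lama1 and Lamb1 turn just negative with the trend removed. All 5 of these collagen and laminin genes stood above shLuc EBs at both days, and there Lama1 had 12.9 against 2.43 and Col4a1 156 against 22.1 RPKM. Of 6 complement and protease inhibitor members, 3 were higher, with complement factor B (Cfb) the highest fold (3.61 against 0.690 RPKM), and the coagulation inhibitor gene Tfpi was lower (114 against 247).

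Stomach and gut genes were a small group led by secreted mucosal proteins. Of 22 listed genes 7 were members, of which 5 were higher and 1, the mucin gene Muc1, lower (1.86 RPKM at day 10 against 4.85 at day 6). With a limit of 1 read in place of RPKM, 9 of 14 listed genes were higher and 1 lower (median 1.99). Tff3, the intestinal trefoil factor, had 11.2 RPKM (80 reads) at day 10 and no read at day 6. At the floor of 3 reads it was at least 109.9-fold higher. Gkn1, the neighbour of Gkn2, had 4.46 against 0.573 (log2 fold 2.76, 2.42 to 3.52), and the water channel gene Aqp8 30.9 against 9.53. Muc13 had 10.6 against 4.63, and Lgals2 lay just under 2-fold. In shLuc EBs Gkn1 had 0.269 against 0.127 RPKM, from 10 reads at each day. Defining stomach genes such as Tff1 (0.402 RPKM at day 10) and Cldn18 (0.0674) stayed below an RPKM of 3, so the label stomach rests on gastrokines and not on a full set.

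Heart muscle genes were higher at day 10, at low levels. Of 20 sarcomere genes 9 were members, and 8 were higher and none lower (median 4.67, for the same genes in shLuc EBs 2.81). All 8 higher members were below an RPKM of 3 at day 6 and so reached the limit through day 10 alone. Of the 19 listed genes with a read 16 were higher and 0 lower (median 2.97). The myosin light chain genes Myl3, Myl4 and Myl7 had 16.3, 9.13 and 13.3 RPKM at day 10 against 0, 0 and 1.71 at day 6. The troponin genes Tnni1, Tnnt2 and Tnnc1 had 13.9, 7.39 and 13.1 RPKM at day 10 against 0, 0.134 and 0.420. Actc1, cardiac actin, had 18.6 against 2.95 (log2 fold 2.61) and the slow myosin heavy chain gene Myh7 3.48 against 0.280 (3.24). Tpm1, which many cells express, lay within 2-fold (175 against 141). For 8 of the 9 members the knockdown fold was above that of shLuc, with a median difference of 1.20. The members were chosen by their shSmyd5 levels, mostly those of day 10, so this comparison is in part set by that choice. The summed RPKM of all 20 listed genes, much of it that of Tpm1 in shSmyd5, was 1.89-fold higher at day 10 in shSmyd5. In shLuc this sum was 2.33-fold higher. The largest gap was at Myl3, at 3.73 RPKM against 1.09 in shLuc EBs. Of the 20 listed genes 10 had no read in the shSmyd5 library of day 6, which held few genes of 1 read, and the part of its zeros in this gap was not tested. The further heart genes Myh6 (2.01 RPKM at day 10), Nppa (0.0772), Pln (0.103) and Ryr2 (1.05) stayed below an RPKM of 3. Of 12 listed cardiac calcium and hormone genes 1 was a member. It was higher (log2 fold 1.28), but not past 2-fold with the median of all genes set to 0. Of the 10 with a read 5 were higher and 0 lower (median 0.78).

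Of 8 heart transcription factor members 6 were higher and none lower (median 2.97, for the same genes in shLuc EBs 3.17). Here 4 members reached the limit at day 10 alone, and of all 14 listed genes 11 were higher and 0 lower (median 2.97). Hand2 and Hand1, bHLH factors of heart and extraembryonic mesoderm, had 18.3 and 114 RPKM at day 10 against 0.250 and 3.80 at day 6 (log2 folds 5.71 and 4.87). Tbx20 had 18.1 against 1.45 RPKM, Isl1, of the second heart field, 6.92 against 0.928, and Smyd1, a muscle member of the Smyd family, 3.22 against 0.268. Nkx2-5 had 1.43 RPKM at day 10 and no read at day 6, and Tbx5 0.747 against 0.0749, both below the limit of 3. The fold of these factors in shSmyd5 was below that in shLuc for 7 of 8 members. Hand1 and Hand2 had 104 and 29.8 RPKM in shLuc EBs of day 10 against 1.42 and 0.104 at day 6.

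Red cell genes had the highest list median over members, but not over all listed genes. All 6 members of 18 listed genes were higher (median 6.70, or 6.90 with the 3 genes without a read at day 6 set at their lower bound). The 5 globin genes among them reached the limit at day 10 alone. Of 17 listed genes with a read 16 were higher and 0 lower with a median of 2.48, below the medians so taken of feeder fibroblast (3.76), mesenchymal (3.26), cardiac sarcomere (2.97), cardiac transcription factor (2.97) and endothelial genes (2.90). Beside the embryonic globins, the adult alpha globin genes Hba-a1 and Hba-a2 had 73.4 and 72.98 RPKM at day 10 against 1.36 and 1.35 at day 6. They are near-identical copies whose reads the mapping may have shared, so their values are not independent. Tfrc, the transferrin receptor, had 48.5 against 22.3 RPKM. The red cell regulators stayed low at day 10, with Gata1 at 1.70, Klf1 at 0.751, Tal1 at 2.43 and the heme enzyme gene Alas2 at 2.72 RPKM. In shLuc EBs of day 10 the same genes had 4.41, 3.23, 7.37 and 4.71 RPKM, and 14 of the list were members there. Of other blood genes 4 of 20 were members. Cd34, of progenitors and endothelium, was higher (4.22 against 1.21 RPKM) and the lysosomal Cd68 lower (15.2 against 31.7), whereas the white cell gene Ptprc had 0.0113 RPKM at day 10.

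All 11 endothelial members of 18 listed genes were higher (median 2.85, for the same genes in shLuc EBs 2.70). The limit was reached at day 10 alone by 8 of them, and of all 18 listed genes 17 were higher and 0 lower (median 2.90). Cdh5, the junction protein VE-cadherin, had 8.64 RPKM at day 10 against 0.358 at day 6 (log2 fold 4.25), and Kdr, the main VEGF receptor, 10.9 against 0.507 (4.18). The transcription factor gene Sox18 had 4.39 against 0.173, the angiopoietin receptor gene Tek 8.77 against 1.13 and Pecam1 7.69 against 1.43. The second VEGF receptor gene Flt1 was already at 9.28 RPKM at day 6 (22.4 at day 10). With the median of all genes set to 0, 8 of the 11 stayed past 2-fold. The lines lay on either side of each other, with the knockdown fold above that of shLuc for 6 members and below it for 5.

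Mesenchymal genes gave 14 higher and 1 lower of 15 members (median 3.41). Of these 11 reached the limit at day 10 alone, while of all 22 listed genes 20 were higher and 2 lower (median 3.26). The type I collagen genes Col1a1 and Col1a2 had 48.8 and 30.5 RPKM at day 10 against 1.83 and 0.888 at day 6. Snai2, a factor of epithelial to mesenchymal change, had 22.9 against 1.13 (log2 fold 4.22) and the intermediate filament gene Vim 232 against 40.8 (2.51). Twist1 was the lower one (6.05 against 15.5, log2 fold -1.34). In shLuc EBs Twist1 had 15.5 against 8.67, and Col1a1 reached 144 against 0.363 RPKM. For 13 of the members the knockdown fold was below that of shLuc. By day 14 Col1a1 had 529 RPKM in shSmyd5 EBs and 856 in shLuc EBs. Among collagen-modifying enzyme genes 13 of 15 were higher and none lower (median 1.88). They held Serpinh1, the collagen chaperone (406 RPKM at day 10 against 110.4 at day 6), P4hb, a subunit of prolyl hydroxylase (355 against 75.5), and Loxl1, a cross-linking oxidase (3.64 against 0.153). With the GC and length trend removed 6 of the 15 were higher and none lower (median 0.71).

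Since the ES cells had once been grown on mouse fibroblasts, fibroblast genes were read as well. All 7 members of 12 such genes were higher, and all of these but Has2 (19.05 against 6.80 RPKM) are matrix genes that also stand on the mesenchymal list. Their median was 4.95, with 6 of them at the limit at day 10 alone, and over 11 listed genes with a read 8 were higher and 3 lower (median 3.76). The summed RPKM of the list was 236 at day 10 against 13.7 at day 6, while Thy1 had 0.738 against 2.71, Ccl2 0.318 against 0.828 and S100a4 no read at day 10 against 0.187 RPKM. Of smooth and skeletal muscle genes 3 of 6 members were higher, led by the smooth muscle actin gene Acta2 (76.2 against 2.87 RPKM, log2 fold 4.68). Cnn1, calponin, was lower (1.19 against 5.13). The median of this list (1.20) became -0.08 with the GC and length trend removed.

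Of 22 listed neural progenitor genes 2 were higher, 5 lower and the rest within 2-fold (median 0.08). Only 3 reached an RPKM of 3, 1 at day 6 alone and 2 at both days, and all were lower at day 10 (median -2.40), among them the filament gene Nes (1.97 RPKM at day 10 against 5.95 at day 6). The same 3 genes had a median of -1.77 in shLuc EBs. In shLuc EBs a wider set of 15 genes of the list reached the limit, of which 11 were higher and 2 lower. The neural plate factor gene Sox1 had 1.27 RPKM in shSmyd5 EBs of day 10 against 0.762 at day 6, and 18.6 against 4.33 in shLuc EBs. Pax6 had 0.568 against 0.314 in shSmyd5 and 10.2 against 6.72 in shLuc, and Lhx2 1.06 against 1.11 in shSmyd5 and 10.3 against 0.291 in shLuc. Neuronal genes gave 4 lower and 1 higher of 7 members (median -1.39). Over all 18 listed genes 8 were lower and 4 higher (median -0.33). Stmn2, a microtubule regulator, had 9.61 RPKM at day 10 against 80.2 at day 6, Neurod1 0.308 against 3.58 and the neurofilament gene Nefm 1.66 against 10.3. The higher one, Isl1, is also on the heart list.

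Epithelial genes gave 9 higher and 1 lower of 17 members (median 1.18, but -0.01 with the GC and length trend removed). The simple keratin genes Krt8, Krt18 and Krt19 had 168, 318 and 98.8 RPKM at day 10 against 22.98, 94.05 and 25.9 at day 6. The tight junction genes split, with Cldn7 higher (60.9 against 10.4, log2 fold 2.54) and Cldn3 lower (2.03 against 7.87, -1.91). Cdh1, E-cadherin, had 70.8 against 90.05 RPKM in shSmyd5 (log2 fold -0.35) and 51.4 against 216 in shLuc (-2.07). Trophoblast genes gave 5 higher and 3 lower of 9 members. Gata3 (6.79 against 1.06) and Ets2 (30.6 against 6.91) were among the higher, beside Cdx2 and Hand1. The lower were Eomes, Esx1 (6.36 against 22.5) and Ascl2 (0.834 against 3.12). Of 26 Hox genes 3 were members, and all were higher, among them Hoxb2 and Hoxb4 with 3.18 and 3.12 RPKM at day 10 against 0.438 and 0.387 at day 6. All 3 reached the limit at day 10 alone, and of the 26 listed Hox genes with a read 19 were higher and 3 lower (median 1.50).

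Signalling genes were next. In the BMP and TGF-beta pathway 14 of 20 members were higher and none lower (median 1.59, for the same genes in shLuc EBs 3.06). Over 22 listed genes with a read 16 were higher and 0 lower (median 1.62). Among the ligands Bmp5 had 7.82 RPKM at day 10 against 0.344 at day 6, Bmp7 7.55 against 1.82, Bmp6 4.49 against 1.45 and Tgfb2 17.6 against 1.27. Of the targets Id3 had 70.9 against 23.02, Id2 166 against 64.5, Msx1 12.96 against 0.965 and Msx2 30.7 against 9.90, while Id1 lay within 2-fold (87.5 against 80.8). Tgfbi, a matrix protein induced by TGF-beta, had 7.07 RPKM at day 10 and no read at day 6. At the floor of 3 reads it was at least 407-fold higher. The TGF-beta and YAP target gene Ctgf had 206 against 34.2 (log2 fold 2.59), set beside 0.28 in shLuc EBs. The inhibitors were unlike each other, with Bambi at 11.5 against 1.12 and Smad6 at 10.3 against 3.45 past 2-fold, and Nog (8.36 against 9.02) and Smad7 (10.4 against 9.80) within it.

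In the Wnt pathway 4 of 14 members were higher and 1 lower (median 0.40, which turns negative with the median of all genes set to 0, against 1.63 for the same genes in shLuc EBs). The ligand gene Wnt5a had 6.19 RPKM at day 10 against 0.422 at day 6 (log2 fold 3.59) and Wnt11 7.53 against 3.44, the fold of Wnt11 turning negative with the GC and length trend removed. The secreted inhibitor gene Frzb had 26.7 against 8.77 and the feedback inhibitor gene Nkd1 4.67 against 1.77. Rspo1, a Wnt enhancer, was lower (1.22 against 5.23, log2 fold -2.01). The general target gene Axin2 lay within 2-fold in shSmyd5 (3.73 against 3.08) and past it in shLuc (11.1 against 3.51). The enhancer gene Rspo3 had 7.32 against 4.59 RPKM in shSmyd5 and 41.7 against 3.09 in shLuc.

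Imprinted growth genes were higher in 12 of 18 members and lower in none (median 1.95). The paternally expressed Dlk1, Mest and Peg3 had 61.9, 385 and 179 RPKM at day 10 against 2.06, 21.95 and 44.7 at day 6. Igf2 had 985 against 389 (log2 fold 1.34), from a far higher start than in shLuc EBs (1214 against 37.4, 5.02). The maternally expressed growth inhibitors H19, Cdkn1c and Igf2r were higher too, Cdkn1c with 99.7 against 14.5 and Igf2r with 51.3 against 9.14. Among DNA, H3K9 and H4K20 methylation genes 6 of 20 were higher and 2 lower (median 0.66). These shares lie near the 36.1% and 9.06% of all members, and the median near their 0.60. With the GC and length trend removed 1 was higher and 4 lower (median -0.40). Tet3 (5.09 against 1.08 RPKM), the H3K9 methyltransferase genes Ehmt2 (24.8 against 5.95) and Suv39h1 (33.7 against 9.33) and the H4K20 methyltransferase gene Suv420h2 (12.6 against 3.14) had the largest folds. Tet1 and Dnmt3b were lower (Tet1 4.66 against 11.7). The knockdown fold was above that of shLuc for all 20 genes of this list, by a median of 0.44. Over all genes the median difference was 0.28, so most genes lay above shLuc too. Of 17 Polycomb members 4 were higher, with Ring1 the highest fold (3.65 against 0.389), and Phc1 was lower (18.2 against 59.9). The other Smyd genes, Smyd1 apart, lay within 2-fold, with Smyd2 at 13.1 against 10.8, Smyd3 at 4.14 against 4.90 and Smyd4 at 2.11 against 3.34 RPKM.

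Genes of cell growth lay near the median of all members or below it. Of 34 cytosolic ribosomal protein genes 14 were lower and 2 higher (median -0.46, for the same genes in shLuc EBs -0.63). The spread was wide, from Rpl13 (144 RPKM at day 10 against 856 at day 6) to Rps19 (107 against 35.3). In shLuc EBs 6 of the 34 genes were lower and 5 higher. Gene by gene the knockdown fold was below that of shLuc for 22 of them, with a median difference of -0.28. These genes have many processed copies in the genome and some are listed by several transcripts, so single values are uncertain. Cell cycle genes gave 9 higher and 4 lower of 29 (median 0.47). Among them Ccnd3 and Ccnd2, cyclins of early G1, had 76.1 and 48.96 RPKM at day 10 against 8.16 and 7.56 at day 6, while Bub1, of the mitotic checkpoint, had 34.1 against 84.2 and Mki67, a proliferation marker, 29.1 against 44.4. DNA replication genes gave 8 higher and 2 lower of 25 (median 0.58), with E2f1 (5.59 against 0.593) and Pcna (89.4 against 251) at the ends. Respiratory chain genes gave 6 higher and 5 lower of 23 (median 0.36), from Uqcrb (49.2 against 228) to Uqcrc1 (57.2 against 14.5), subunits of the same complex. The medians of the cell cycle, replication and respiratory lists turn negative when the median of all genes is set to 0.

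Glycolysis and hypoxia genes gave 4 higher and 4 lower of 24 members (median 0.11). Slc2a3 had 891 RPKM at day 10 against 193 at day 6 (log2 fold 2.21), and the hypoxia-responsive Adm and Bnip3 had 4.87 and 80.7 against 22.2 and 196. Cholesterol synthesis genes gave 10 higher and none lower of 17 (median 1.18, for the same genes in shLuc EBs 0.65). Mvd and Mvk, of the mevalonate branch, had 16.3 and 5.25 against 2.50 and 0.927. Stress response genes gave 10 higher and none lower of 16 (median 1.23), among them the chaperone genes Hspa5 (330.4 against 116) and Pdia4 (85.5 against 19.2), whereas the stress factor gene Ddit3 had 22.3 against 29.9. Lysosome and lipid uptake genes gave 10 higher and 1 lower of 18 (median 1.24), with Ctsd at 153 against 26.7 and Pltp at 13.1 against 34.8. With the GC and length trend removed, glycolysis genes gave 1 higher and 10 lower (median -0.91). Cholesterol genes then gave 4 higher and 0 lower (0.38), and stress (0.60) and lysosome genes (0.58) each 4 higher and 1 lower. With the median of all genes set to 0, cholesterol, stress and lysosome genes each gave 5 higher, with 0, 3 and 3 lower. Glycolysis genes then gave 1 higher and 8 lower. Of 14 p53 target genes 1 (Phlda3) was higher and 1 (Bbc3) lower, and Cdkn1a had 80.2 against 57.9 RPKM.

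The step was then set against the same step in shLuc EBs, over 11090 genes that reached an RPKM of 3 in 1 or more of the 4 libraries. The 2 log2 folds share no library. Across these genes, which are not independent replicates, their Pearson correlation was 0.74. Of 4074 genes higher in shSmyd5, 2399 were also higher in shLuc, which is 58.9% of these and 78.5% of the 3057 higher in shLuc. Of 1002 genes lower in shSmyd5, 566 were also lower in shLuc (56.5% of these and 51.7% of the 1095 lower in shLuc). The 2 lines passed 2-fold in opposite directions for 16 genes higher in shSmyd5 and 17 lower in it. The fold in shSmyd5 was above that in shLuc by at least 1 in log2 for 1681 genes (15.2%) and below it by at least 1 for 930 (8.39%), around a median difference of 0.28. With the median of all genes of each line set to 0, 825 genes lay above and 1479 below. No replicate tests any of these differences.

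**Figure D4:**
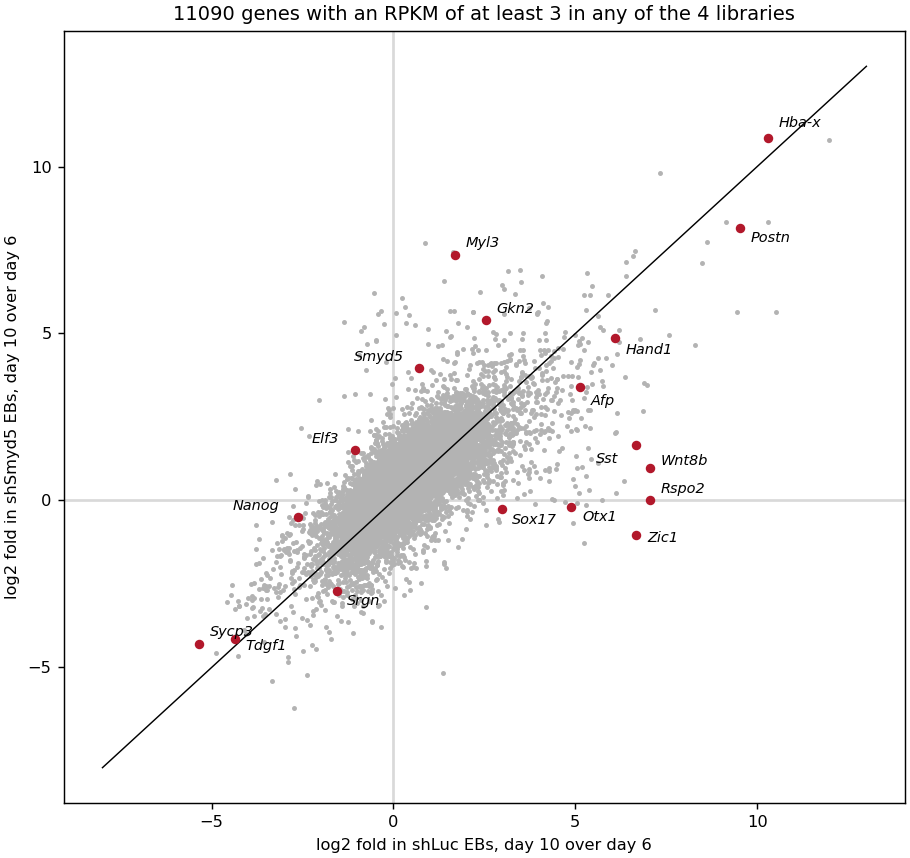
Log2 fold, day 10 over day 6, in shSmyd5 EBs against that in shLuc EBs for 11090 genes (grey points), with the line of equal folds and named genes in red. Zic1, Wnt8b, Rspo2, Otx1 and Sst lie far to the right and well below the line, and Myl3, Gkn2 and Smyd5 lie above the line.

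The 5 most negative differences were those of Zic1, Rspo2, Wnt8b, Otx1 and Sst. Zic1, a zinc finger factor of the neural tube, had 0.248 RPKM in shSmyd5 EBs of day 10 against 0.607 at day 6, but 27.5 against 0.171 in shLuc EBs, a difference of -7.69. Otx1, of forebrain and midbrain, had 1.04 against 1.20 RPKM in shSmyd5 and 12.1 against 0.312 in shLuc, and Wnt8b, a Wnt ligand of the forebrain, differed by -6.09 (0.0948 against 0 RPKM in shSmyd5, 18.7 against 0.0413 in shLuc). The Wnt enhancer Rspo2 had no read at either day in shSmyd5 and 15.6 against 0.0185 RPKM in shLuc. Sst, the neuropeptide somatostatin, had 0.214 RPKM from 2 reads at day 10 and no read at day 6 in shSmyd5, and 10.03 RPKM from 183 reads with no read at day 6 in shLuc. At the other end only Myl3 of the 5 genes was a protein-coding gene. The rest were the short rows Mir3064, Snord69, Mir5116 and Mir1905, with 22, 3, 17 and 12 reads in shSmyd5 EBs of day 10 and 0 at day 6. Their shLuc reads at day 6 were 81, 52, 21 and 72, so of these 4 libraries each row was at 0 only in that of shSmyd5 day 6.

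Base composition and level moved with the folds. Over 9811 members with a known GC content, the Spearman correlation of the fold with GC content was 0.36 in shSmyd5, and over genes reaching an RPKM of 3 in shLuc EBs it was 0.53 in shLuc. The members were cut into 10 equal groups by GC content. From the group lowest in GC (median 40.3%) to the highest (59.8%) the median log2 fold ran from -0.05 to 1.27 in shSmyd5 and from -0.59 to 1.18 in shLuc. Transcripts of higher members had a median GC content of 53.4% and length of 2909.5 bases, against 47.5% and 1614 bases for lower ones. The level went with it too. In the lowest of 10 equal groups by mean RPKM 64.5% were higher and 10.96% lower (median 1.39). In the highest group 14.9% were higher and 23.8% lower (median -0.15). The lowest group had a median mean RPKM of 2.58. A member with a mean below 3 reached the limit at 1 day alone, so shSmyd5 folds in that group are in part set by the limit. In shLuc EBs the medians of the same groups were 0.91 and -0.22. The part of base composition and level in the counts was not tested. The lists above differ in how they stand to it. With the GC and length trend removed the erythroid median was 6.88, the cardiac sarcomere median 4.45 and the pluripotency median -1.74. Of medians past 2-fold, those of parietal endoderm (-0.07), smooth and skeletal muscle (-0.08) and epithelial genes (-0.01) turned negative. The median of collagen-modifying enzyme genes went from 1.88 to 0.71.

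**Figure D5:**
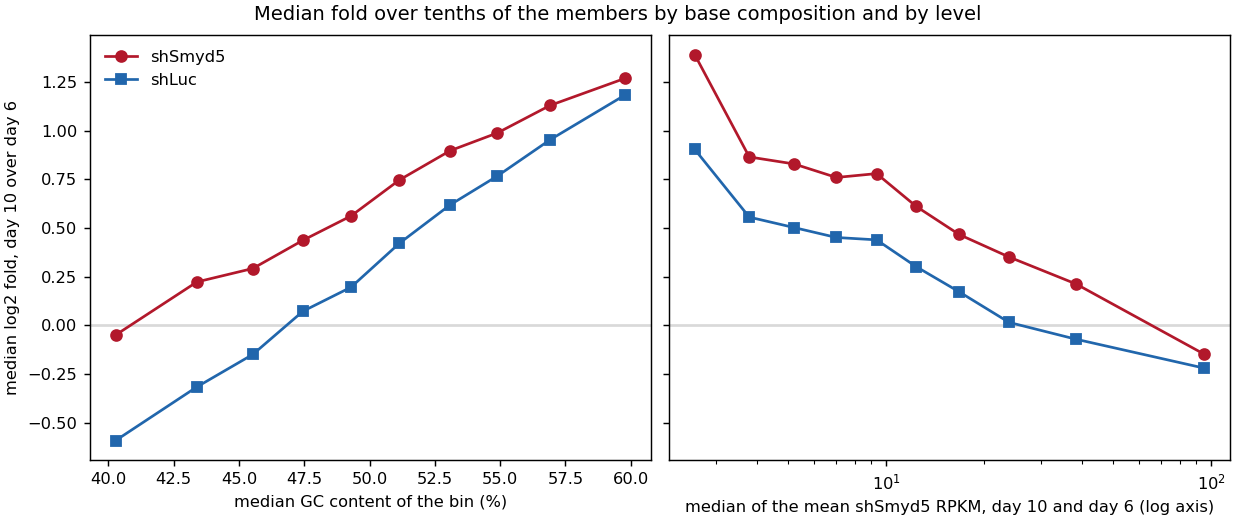
Median log2 fold, day 10 over day 6, in 10 equal groups of the members ordered by GC content (left) and by their mean RPKM over both shSmyd5 libraries (right, log axis), for shSmyd5 (circles) and shLuc (squares). In both lines the median climbs with GC content, in shSmyd5 from -0.05 to 1.27. It is lower in the group with the highest RPKM than in the group with the lowest, where shSmyd5 folds are in part set by the RPKM limit.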

How the data were processed

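PolyA RNA-Seq of 10 libraries (shSmyd5 and shLuc, ES cells and EBs of 24 h, day 6, day 10 and day 14, 1 library each, 3895537 to 43377815 reads in genes) was used. The authors mapped single reads to mm9 with Bowtie2 (CASAVA is also named in the submitters' processing notes) and gave reads per RefSeq transcript. Versions, the handling of strand and of reads shared between transcripts are not given in the sources used here. The deposited count of each transcript is a whole number of reads that is not normalized. The deposited RPKM values are these counts divided by transcript length and by library size (RPKM scale), as the authors set them, and equal that formula within 1% for 100% of values above 200 reads. The library size in this check was itself taken from these counts, lengths and RPKM values. The match thus shows that 1 size fits each library, not how the authors counted it. Neither column was changed.

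For each of 22878 symbols the transcript with the highest mean reads over the 10 files was kept (29257 transcripts in all). The log2 fold is that of RPKM + 0.1 at day 10 over day 6. Each condition had 1 library, so no test between conditions was possible. Exact binomial intervals and floors cover counting error alone and assume that reads are separate molecules. The fold and interval code was tested on simulated data. Named genes were Smyd5, the markers Afp, Myl7 and Gkn2, the 15 highest and 15 lowest folds (RPKM of at least 10), the 10 highest RPKM at each day, the 5 highest and 5 lowest differences to shLuc, and of each list up to 5 largest folds plus genes of known role. The members, markers and lists were chosen with earlier results of these data known. A few genes of the lists are not reported here by name. Short RNA rows of miRNA and snoRNA genes were kept.

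Positions and GC content came from GENCODE M1 (mm9), promoters from a RefSeq table of GRCm38.p6. The alternatives were pseudocounts of 1 and 0.01, RPKM limits of 1 and 10, no limit but 1 read, TMM scaling (edgeR 4.0.16), DESeq2 1.42.0 size factors, the median of all genes set to 0, another choice of transcript, removal of a spline trend over GC content and length, and intervals wholly past 2-fold. A limit of 1 or more reads in each library was added after seeing the data. R 4.3.3 and Python 3.11.15 were used, with scipy 1.17.1 for intervals, scikit-learn 1.9.0 for the spline, pandas 2.3.3 and numpy 2.4.6 for tables, and matplotlib 3.10.9 for plots.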

Additional observations from a re-analysis of the deposited data

Results flagged for a closer look

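For 12 genes that reached an RPKM of 10 in 1 or more of the 4 libraries, the day 10 level was at least 2-fold above that of day 6 in 1 line and at least 2-fold below it in the other. With 1 library a point, none of these differences (log2 fold in shSmyd5 less that in shLuc) was tested. Elf3, an epithelial transcription factor gene, had 15.7 RPKM at day 10 against 5.47 at day 6 in shSmyd5 EBs and 6.88 against 14.5 in shLuc EBs, a difference of 2.58. The small nucleolar RNA rows Snord22 and Snord4a differed by 2.45 and 2.17, Snord4a from 9 and 18 reads at day 10 and day 6 in shSmyd5 and 11 and 52 in shLuc. The other 9 genes were lower at day 10 in shSmyd5 and higher in shLuc. The neural genes Zic1 and Sox3 differed by -7.69 and -3.31, Sox3 with 0.496 against 2.14 RPKM in shSmyd5 and 10.1 against 3.78 in shLuc. Rspo1 differed by -3.46, with 10.6 against 3.80 RPKM in shLuc, and the stress gene Gadd45b by -2.41 (8.04 against 18.4 in shSmyd5, 7.65 against 3.20 in shLuc). Brp44, which encodes a subunit of the mitochondrial pyruvate carrier, differed by -3.23 (7.49 against 26.9 in shSmyd5, 7.88 against 2.94 in shLuc). Npl, of sialic acid breakdown, differed by -2.17, Ppp1r35 by -2.21, 2200002D01Rik by -2.16 and 1810043H04Rik by -2.22. With the median of each line set to 0, Elf3 lay at 0.91 in shSmyd5 and -1.37 in shLuc, and Zic1 at -1.62 and 6.37.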

How the results depend on the processing

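The count of genes higher at day 10 in shSmyd5 EBs (3686) was 2028 with an RPKM limit of 10, 6217 with no limit, 2031 with TMM, 2037 with DESeq2 size factors, 1905 with the median of all genes set to 0 and 1387 with the GC and length trend removed. The count of lower genes (925) was 1682 with no limit, 1785 with TMM, 1778 with DESeq2 size factors, 1883 with the median set to 0 and 1417 with the trend removed. The median log2 fold (0.60) was 0.48 with a limit of 10, 0.047 with TMM, 0.049 with DESeq2 size factors, 0 by construction with the median set to 0, and 0.0021 with the trend removed. Genes whose fold was above that of shLuc (1681) numbered 1096 with a pseudocount of 1, 963 with a limit of 10, 3064 with no limit, 1080 with TMM, 955 with DESeq2 size factors, 825 with the median set to 0 and 902 with the trend removed. Those below it (930) numbered 532 with a limit of 10, 2133 with no limit and 1479 with the median set to 0. They numbered 1261 with TMM, 1378 with DESeq2 size factors and 1069 with the trend removed. With TMM, DESeq2 size factors, the median set to 0 or the trend removed, more genes lay below shLuc than above it. Filters change how many genes are counted, and the cause of the other shifts was not tested.

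Of 26 list medians past 2-fold, the direction of 3 turned with the trend removed. They became -0.067 for parietal endoderm and basement membrane, -0.079 for smooth and skeletal muscle and -0.0062 for epithelial genes. The neural progenitor median was 0.082 with no limit. With the trend removed, the log2 folds of 10 genes turned to -0.057 (Eng), -0.26 (Gata4), -0.37 (Hk1), -0.41 (Hspg2), -0.067 (Lama1), -0.46 (Lama5), -0.018 (Lamb1), -0.0061 (P4ha2), -0.0062 (Spint1) and -0.17 (Wnt11). Of 237 named and listed genes that were higher, 164 stayed past 2-fold with the median set to 0 and 175 with TMM, as did all 92 that were lower. With the trend removed 140 of 228 higher and 80 of 91 lower genes with a known GC content stayed past 2-fold. The limit of 1 or more reads in each library, chosen after seeing the data, left 3628 genes higher and 922 lower. No paired analysis was possible because the groups compared, day 10 and day 6 of 1 line, had 1 library each, and for the same reason no library could be left out.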

Other observations

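At day 14 the shSmyd5 library held 98.8 RPKM of Hba-x and 40.6 of Hbb-bh1, the embryonic globins that had 187 and 177 RPKM at day 10. The adult alpha globin gene Hba-a1 had 163 RPKM at day 14 and 73.4 at day 10. Over the same days the gastrokine gene Gkn1 had 29.1 against 4.46 RPKM, the albumin gene Alb 0.250 against 0.0313 and the atrial myosin gene Myl7 16.8 against 13.3. Each value is that of 1 library, and no difference between them was tested.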
